A study of Homo sapiens with 12 samples.

Results

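SB590885 inhibits Raf kinases, and its effect on gene expression was read from arrays of INA-6, an established human multiple myeloma line whose growth depends on interleukin-6. Raf kinases are switched on by RAS and phosphorylate MEK, which in turn phosphorylates ERK, a kinase that acts on transcription factors in the nucleus. In myeloma cells interleukin-6 and RAS mutations both feed into this cascade, which promotes growth and survival. The comparison took the 4 arrays titled as B-Raf-inhibited cells and the 4 titled as controls, which received DMSO, 8 of the 12 arrays in all, with every one of the 54675 probe sets. Arrays were paired by replicate number, 1 to 4. The remaining 4 arrays were of cells given PD325901, a MEK inhibitor, and serve only to show where a gene differed between the inhibitors. All groups were the same line without other agents named, kept in RPMI1640 medium that held 10% fetal calf serum and interleukin-6 at 2 ng/ml, with 300000 cells treated and 100 ng of total RNA labelled. The sources used here give neither the dose nor the length of treatment. The whole series rests on 1 cell line. Histone genes and 4 fixed gene lists are left aside below. The lists hold FOXO targets, ATF4 and amino acid response genes, ribosome biogenesis genes and MYC targets, and heat shock genes. Targets of these factors that are not on the lists were not removed. Exceptions are SLC7A11, an ATF4 target that the oxidant defence list also holds, and 4 histone genes whose response differed by array set.

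The values are log2 expression per probe set, so a difference of 1 is a doubling. Each gene was read from its probe set with the highest mean, which gave 19775 genes, and a gene is said to rise or fall where limma's paired fit gave a Benjamini-Hochberg adjusted p under 0.05. The arrays carried no count of molecules, and their number, 4 in each group, limits the precision. Markers of the labelled cell type were present. The plasma cell genes JCHAIN, TNFRSF17, XBP1, IRF4 and SDC1 had DMSO means of 13.95, 12.96, 12.80, 11.91 and 10.75, and the lowest of the 12 plasma cell markers was CD27 at 6.95, beside a median of all values of 6.92. The 9 B cell markers ran from 6.50 for BANK1 to 9.56 for CD79B, with MS4A1 at 6.64 and PAX5 at 7.72. CD247, CD8B and TRAT1, taken as T and NK cell markers, were nevertheless measured at 11.19, 8.21 and 8.19. HBB, PECAM1 and COL1A1, from the erythroid and the fibroblast and endothelial lists, were at 8.83, 8.58 and 8.27. The higher of the DMSO and SB590885 means reached 6.92 for 8 of 15 T and NK cell markers. It did so for 4 of 11 fibroblast and endothelial, 4 of 7 erythroid and platelet, and 1 of 11 monocyte and myeloid markers. Arrays 3 and 4 of each group carry an R in a second label, and the sources used here do not explain it. Values spread less on them, with an SD over probe sets of 1.43 to 1.45 on these 4 arrays against 1.52 to 1.55 on arrays 1 and 2. Interferon response genes, a list of 39 measured genes added after results were known, were high on replicate 2 of DMSO and PD325901: their median was 11.2 and 11.1 on these arrays, 8.32 on SB590885 replicate 2 and 7.35 to 7.80 on the other 9 arrays. Signs of RNA quality also moved with treatment. For the GAPDH control, the 3′ probe set exceeded the 5′ probe set by 0.440 ± 0.035 with SB590885 and 0.371 ± 0.033 with DMSO (SD, n = 4 each). For ACTB the excess was 1.65 ± 0.17 and 1.58 ± 0.17. Both were higher with SB590885 in 4 of 4 pairs, and their part in the results was not tested.

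SB590885 moved many genes by small amounts. Of 19775 genes, 1421 (7.19%) rose and 1704 (8.62%) fell, and 3099 of these 3125 moved in 1 direction in all 4 pairs. The median rise was 1.21-fold and the median fall 1.22-fold. Rises of at least 1 on the log2 scale numbered 29 and falls of that size 9, histones included. Over all genes the groups of 4 arrays did not overlap for 10.2%, and among the 3125 they did not overlap for 1539 genes. Without the pairing 549 genes passed (2.78%), 213 higher (1.08%) and 336 lower (1.7%), all of them among the 3125. A term for the R mark in place of the replicate number gave 1486 higher and 1715 lower, counts near those of the paired fit. The fits also differ in their number of terms, and what the pairs add within the marked and unmarked sets was not tested. The split of rises and falls moved with scaling, from 45.5% higher to 38.5% when arrays were centred on their medians and 53.3% after quantile normalisation. Leaving out pair 1 gave 738 higher and 943 lower genes. Outside the histones and the 4 lists set aside, 3013 genes rose or fell. Of the 3125, only 48 had both group means under 6.92, the median of all values. The list counts below are to be read against 7.19% higher and 8.62% lower over all genes. The lists were chosen with earlier results of these data known, so their shares describe these arrays and are no independent test. Lists hold mainly genes that reach that median, as all 58 DNA repair genes do. Shares of calls among such genes alone were not computed.

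AP-1 subunits and regulators of NF-kappa B were among the largest rises. JUND, which encodes an AP-1 subunit, was at 9.08, 9.70, 8.95 and 9.31 on DMSO arrays 1 to 4 and at 11.72, 11.96, 10.96 and 10.00 with SB590885. All 4 treated arrays lay above all 4 controls, although pair 4 contributed only 0.69. The mean difference was 1.90 (SE 0.25, adjusted p = 0.00174), or 3.73-fold, and 0.59 when the gene's probe sets were averaged. JUN, the AP-1 subunit that names the family, went from 10.60, 10.91, 10.65 and 10.12 with DMSO to 12.41, 12.46, 11.68 and 10.98 with SB590885. Its groups did not overlap either and it rose by 1.32 (SE 0.13, adjusted p = 0.00069); its probe set ends in _x_at, a mark for probes that may also bind other transcripts. NFKBIA encodes I-kappa-B alpha, which holds NF-kappa B in the cytoplasm and is itself induced by it. It measured 9.35, 10.27, 9.26 and 9.02 with DMSO and 11.51, 11.17, 10.06 and 9.69 with SB590885, where the array of pair 1 was the highest of the 8. Its groups overlapped, since DMSO replicate 2 lay above SB590885 replicates 3 and 4, but each treated array was above its own control. The paired differences were 2.16, 0.89, 0.80 and 0.67, with a mean of 1.13 (SE 0.20, adjusted p = 0.00718), or 0.60 with probe sets averaged. NFKBIZ, a nuclear member of the same inhibitor family, differed by 1.81, 1.09, 0.51 and 0.62 over pairs 1 to 4 and rose by 1.01 (adjusted p = 0.00616). The deubiquitinase genes TNFAIP3 and CYLD, which restrain NF-kappa B signalling, rose by 0.43 and 0.45. Under a trended, robust prior the adjusted p was 0.11 for JUND, 0.19 for NFKBIA and 0.165 for NFKBIZ.

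ERN1 encodes IRE1 alpha, the endoplasmic reticulum sensor that splices XBP1 mRNA. It stood at 9.16, 9.15, 8.80 and 9.05 on the controls and 10.70, 10.63, 9.94 and 9.91 on the treated arrays. The 4 treated arrays were all higher, by 1.54, 1.48, 1.14 and 0.86, and the mean rise was 1.26 (SE 0.10, adjusted p = 0.000314), or 2.39-fold. XBP1 itself, the plasma cell transcription factor, fell in every pair, with differences of -0.92, -0.43, -0.25 and -0.89 on the log2 scale and a mean of -0.62 (SE 0.10, adjusted p = 0.00532). PIM2, a survival kinase of myeloma cells, was at 10.99, 11.00, 10.57 and 10.68 with DMSO and 11.70, 11.66, 11.64 and 11.51 with SB590885, and rose by 0.81 (SE 0.07, adjusted p = 0.000345). Every treated array was above every control. PCK2, the mitochondrial form of phosphoenolpyruvate carboxykinase, rose by 0.97 (SE 0.07, adjusted p = 0.00027), and SQSTM1, the autophagy receptor p62, by 0.92 (SE 0.12, adjusted p = 0.00172). BNIP3L, a receptor for the removal of mitochondria, rose by 0.86 with pairs from 0.16 to 1.63. TP53INP1, a stress gene induced by p53, rose by 0.88, and INHBE, an inhibin subunit, by 0.85. PCK2 and INHBE, though outside the list set aside, are also known to respond to ATF4. Calls ended with 1 pair left out for BNIP3L without replicate 1 (adjusted p = 0.0523). A trended, robust prior gave an adjusted p of 0.0582 for XBP1, 0.228 for BNIP3L, 0.0754 for TP53INP1 and 0.108 for INHBE. With probe sets averaged the rise was 0.63 for ERN1, 0.51 for SQSTM1 and 0.44 for TP53INP1.

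Other leading rises came from genes of varied kinds. LINC01419, a long noncoding RNA, had the largest, with paired differences of 2.77, 2.78, 2.39 and 1.52 and a mean of 2.36 (SE 0.17, adjusted p = 0.000263). TENM1, a teneurin of the cell surface, rose by 1.10; TUFT1 by 1.09; SMIM14 by 1.00; DHRS2, a short-chain dehydrogenase, by 0.95; YPEL5 by 0.94; and SYNM, the intermediate filament protein synemin, by 0.81. The unnamed transcript LOC100996740 rose by 0.94. IFIT2, an interferon-induced gene, rose by 2.44, 1.43, 0.62 and 0.05 in pairs 1 to 4, and its mean of 1.14 had an adjusted p of 0.04. Its groups overlapped, and without replicate 1 the difference was 0.70. Of these 20 largest rises, chosen for their size, 15 had groups that did not overlap (1539 of the 3125 called and 10.2% of all genes). Without the pairing 11 of the 20 passed, against 2.78% of all genes. Pair 1 gave the largest difference for 9 and pair 2 for 7 of the 20. Leaving out 1 pair ended the call of IFIT2 without replicates 1, 2 and 3 (adjusted p = 0.089, 0.112 and 0.0542). With limma's trended, robust prior the call ended at an adjusted p of 0.353 for IFIT2. With probe sets averaged the adjusted p was 0.056 for IFIT2, and the rise was 0.64 for TENM1 and 0.52 for SMIM14. With the R mark as the only term the adjusted p was 0.309 for IFIT2.

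**Figure D1:**
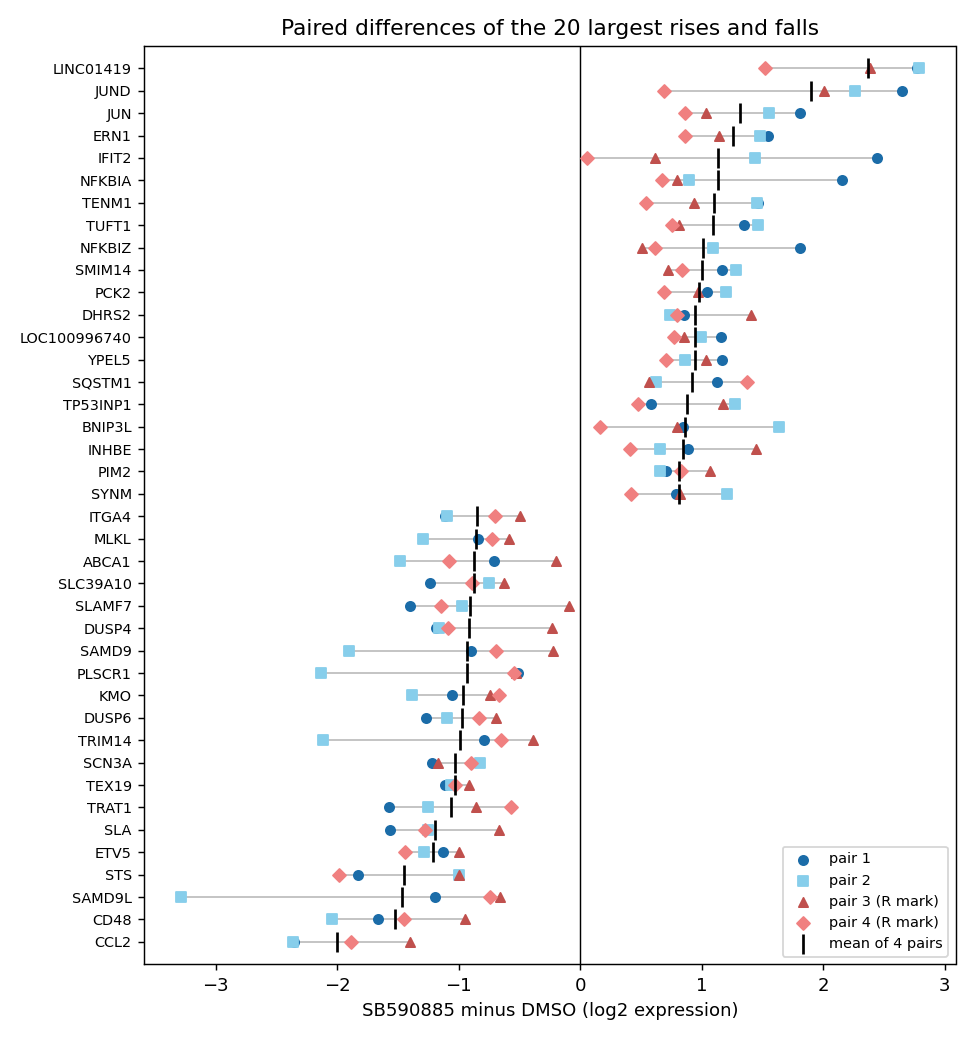
SB590885 minus DMSO on the log2 scale (horizontal axis) for the 20 largest rises and 20 largest falls, 1 gene per line; symbols are pairs 1 to 4 and the black tick is their mean. Points of a gene lie on 1 side of 0 in every pair, and pair 2 stands far left of the others for SAMD9L (-3.28), TRIM14 (-2.12) and PLSCR1 (-2.13).

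Falls were led by CCL2, the chemokine that draws monocytes, which fell by 2.00 with pairs of -2.36, -2.37, -1.40 and -1.88, and by CD48, a SLAM family surface receptor, with a difference of -1.52 (SE 0.14, adjusted p = 0.000483). STS, steroid sulfatase, which frees steroids from their sulfates, went from 10.56, 10.22, 9.74 and 10.45 with DMSO to 8.73, 9.22, 8.74 and 8.47 with SB590885. No treated array reached the lowest control, and the mean difference was -1.45 (SE 0.16, adjusted p = 0.000857). SLA, an adaptor that dampens antigen receptor signalling, measured 9.85, 9.84, 9.80 and 10.11 with DMSO and 8.29, 8.59, 9.13 and 8.83 with SB590885. Pairs differed by -1.56, -1.26, -0.67 and -1.28, and the mean was -1.19 (SE 0.11, adjusted p = 0.000584). TEX19, a gene normally active in germ cells, was at 10.65, 11.40, 10.46 and 10.45 with DMSO and 9.54, 10.33, 9.54 and 9.42 with SB590885. Its 4 paired differences of -1.11, -1.07, -0.92 and -1.03 were nearly equal, and its mean difference of -1.03 (SE 0.05, adjusted p = 7.38e-05) had the smallest adjusted p of the 20. SCN3A, a voltage-gated sodium channel, differed by -1.03 (SE 0.07, adjusted p = 0.000218). Under a trended, robust prior the adjusted p was 0.0505 for STS.

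KMO, the kynurenine monooxygenase of tryptophan breakdown, was at 8.10, 8.65, 8.07 and 7.86 on the controls and 7.05, 7.26, 7.33 and 7.19 after treatment. It fell by 0.96 in the mean (adjusted p = 0.000815), with no overlap. MLKL, which perforates the membrane in necroptosis, measured 9.29, 9.63, 9.17 and 9.11 with DMSO and 8.44, 8.34, 8.59 and 8.38 with SB590885, a difference of -0.86 (SE 0.10, adjusted p = 0.000998). ITGA4, the alpha chain of the integrin that binds VCAM1, changed by -1.11, -1.09, -0.49 and -0.70 in the pairs, with a mean of -0.85 (SE 0.10, adjusted p = 0.00102). All of its treated arrays were below all controls. SLC39A10, a zinc importer, fell by 0.87 on the log2 scale, ABCA1, the cholesterol exporter, by 0.87, and SLAMF7, a surface receptor of plasma cells, by 0.90. SLAMF7 moved by only -0.09 in pair 3 and ABCA1 by -0.20, against -1.40 and -1.48 in their largest pairs. The ERK phosphatase genes DUSP6 and DUSP4, both known targets of ERK signalling, differed by -0.97 and -0.92, and the ETS factor gene ETV5 by -1.21. A trended, robust prior gave an adjusted p of 0.176 for ABCA1, 0.189 for SLAMF7 and 0.0762 for DUSP4.

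Several interferon-induced genes among the falls differed most in pair 2. SAMD9L was at 9.72, 12.18, 9.57 and 9.35 on the controls and 8.53, 8.90, 8.91 and 8.62 on the treated arrays. DMSO replicate 2, an array with the high interferon list, was far above the other 7, and PD325901 replicate 2, the other such array, was at 12.20, against 9.65 to 9.92 on the rest of its group. The differences of SAMD9L were -1.19, -3.28, -0.66 and -0.74, those of TRIM14 -0.79, -2.12, -0.39 and -0.65, of PLSCR1 -0.51, -2.13, -0.53 and -0.54 and of SAMD9 -0.90, -1.90, -0.23 and -0.69. Over the interferon list the median difference was -0.04, -2.16, -0.03 and -0.13 in pairs 1 to 4, and 1 of 39 genes rose and 4 fell. These are 2.56% and 10.3%, against 7.19% and 8.62% of all genes, so the share lower was near that of all genes. Without replicate 2 the list median was -0.04, with 0 rises and 10 falls, in a fit that called 4.87% of all genes higher and 6.33% lower. Without replicate 2 the difference of SAMD9L was -0.86 (adjusted p = 0.00134), of TRIM14 -0.61 (0.00223), of PLSCR1 -0.53 (0.000967) and of SAMD9 -0.60 (0.00937). PSMB8, an immunoproteasome subunit that interferon induces, had a like pattern, with pairs of -0.78, -1.33, -0.48 and -0.55; without replicate 2 its difference was -0.61 (adjusted p = 0.00141). Among the 20 largest falls, likewise chosen for size, all had groups that did not overlap (1539 of the 3125 called and 10.2% of all genes). Without the pairing 15 of these 20 passed, against 2.78% of all genes. When 1 pair was left out, the calls lost were SAMD9 without replicates 1 and 4 (adjusted p = 0.066 and 0.0529), SAMD9L without replicate 1 (adjusted p = 0.0714), TRIM14 without replicate 1 (adjusted p = 0.0572) and PLSCR1 without replicates 1 and 4 (adjusted p = 0.052 and 0.0619). With limma's trended, robust prior the call ended at an adjusted p of 0.27 for SAMD9, 0.316 for SAMD9L, 0.285 for TRIM14 and 0.327 for PLSCR1. Averaging the probe sets of a gene gave an adjusted p of 0.0502 for SAMD9, 0.0618 for SAMD9L, 0.0666 for TRIM14 and 0.0595 for PLSCR1. The R mark in place of the pairs gave an adjusted p of 0.0582 for SAMD9, 0.0547 for SAMD9L and 0.0776 for PLSCR1.

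Genes of the mitochondrial ribosome, a list chosen with earlier results of these data known, fell together. This ribosome translates the few proteins encoded by mitochondrial DNA, and its own proteins are nuclear-encoded and imported. Of 55 measured members of the list, 34 fell and 0 rose, against 8.62% and 7.19% of all genes. The median difference was -0.22, with -0.24, -0.26, -0.27 and -0.11 in pairs 1 to 4, beside 0.00 over all genes. MRPS17, of the small subunit, measured 11.49, 11.45, 11.29 and 11.21 with DMSO and 10.87, 10.85, 10.79 and 10.84 with SB590885. Its groups did not overlap, each treated array was below its own control, and the mean difference was -0.52 (SE 0.05, adjusted p = 0.000641). MRPL32 and MRPL17 of the large subunit fell by 0.47 and 0.41, and MRPS12, which lies at the decoding centre, by 0.41. The number of members lower was 10 without the pairing, 20 after quantile normalisation and 21 to 37 when 1 pair was left out, the fewest without replicate 2.

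The 150 bases before the start of the 4 mitochondrial ribosome genes named above are given because these genes fell together, and those of JUN and NFKBIA because they were among the largest rises. The sequences are from RefSeq, build GRCh38.p14, 5′ to 3′: MRPS17 at chr7:55951727-55951876 on the plus strand, MRPL32 at chr7:42932226-42932375 on the plus strand, MRPL17 at chr11:6683341-6683490 on the minus strand, MRPS12 at chr19:38930794-38930943 on the plus strand, JUN at chr1:58784048-58784197 on the minus strand and NFKBIA at chr14:35404750-35404899 on the minus strand. Capitals mark a match to a searched motif.
MRPS17: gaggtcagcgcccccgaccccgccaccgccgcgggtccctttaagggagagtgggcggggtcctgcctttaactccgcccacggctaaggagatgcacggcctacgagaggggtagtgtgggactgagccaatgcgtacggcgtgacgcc
MRPL32: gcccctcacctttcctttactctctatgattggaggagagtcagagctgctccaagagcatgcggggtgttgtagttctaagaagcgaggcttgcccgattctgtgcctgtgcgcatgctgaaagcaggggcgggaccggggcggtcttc
MRPL17: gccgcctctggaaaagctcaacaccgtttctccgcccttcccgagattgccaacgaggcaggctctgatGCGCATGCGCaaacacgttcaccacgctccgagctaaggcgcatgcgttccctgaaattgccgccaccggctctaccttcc
MRPS12: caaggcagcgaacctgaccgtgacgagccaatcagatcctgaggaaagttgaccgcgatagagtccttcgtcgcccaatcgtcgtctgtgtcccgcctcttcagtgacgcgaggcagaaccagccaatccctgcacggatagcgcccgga
JUN: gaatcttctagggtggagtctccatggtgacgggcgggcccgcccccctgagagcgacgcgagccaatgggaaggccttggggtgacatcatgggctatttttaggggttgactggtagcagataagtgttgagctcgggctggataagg
NFKBIA: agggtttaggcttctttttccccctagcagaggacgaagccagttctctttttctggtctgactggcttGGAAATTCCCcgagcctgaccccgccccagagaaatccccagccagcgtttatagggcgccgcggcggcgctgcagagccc
In these stretches MRPL17 held the NRF1 palindrome and NFKBIA a kappa B site read on the other strand, and the other 4 held none of the 6 motifs searched on both strands. The other 4 motifs were the ETS core CCGGAAG, the cyclic AMP response element TGACGTCA, the E-box CACGTG and the AP-1 site TGANTCA. Within 250 bases before to 50 after the start, the ETS core was in 10.7% of all 27305 RefSeq promoters, 14.4% of those of genes measured, 20.1% of those that rose, 20.8% of those that fell, and 34.7% of the mitochondrial ribosome list (22.6% of its members that fell). The NRF1 palindrome was in 6.28% of all promoters, 8.78% of genes measured, 13.7% of those that rose, 11.9% of those that fell and 6.12% of that list. Of that list, 49 measured members had a promoter sequence. Over all, measured, risen and fallen genes in that order, the kappa B site was in 1.92%, 2.07%, 2.19% and 2.17%. The cyclic AMP response element was in 1.98%, 2.67%, 4.22% and 3.49%. For the E-box the shares were 7.43%, 8.90%, 11.4% and 13.3%, and for the AP-1 site 7.76%, 5.84%, 3.46% and 4.40%. A match describes letters only.

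Mitochondrial import genes, which carry those proteins through both membranes, had 19 of 37 members lower and 1 higher, with a median of -0.21. These are 51.4% and 2.70%, against 8.62% and 7.19% of all genes. TIMM8A, an intermembrane space chaperone, measured 9.71, 9.57, 9.34 and 9.21 with DMSO and 9.09, 9.06, 8.98 and 8.89 with SB590885. The groups lay apart, and the difference was -0.45 (SE 0.06, adjusted p = 0.00137). GRPEL1, the exchange factor of the matrix HSP70, differed by -0.51, -0.62, -0.39 and -0.22 and fell by 0.44 in the mean. TOMM70, a receptor on the outer membrane, and APOO, a part of the cristae-organising complex, fell by 0.42 and 0.39. The count lower was 4 without the pairing, 13 after quantile normalisation and 10 to 20 when 1 pair was left out, the fewest without replicate 1.

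The nuclear pore and its transport receptors followed. Of 53 measured genes 28 fell and 2 rose, with a median of -0.18. These are 52.8% and 3.77%, against 8.62% and 7.19% of all genes. NUP160, of the outer ring of the pore, was at 10.52, 10.46, 9.93 and 10.01 with DMSO and 10.15, 9.96, 9.52 and 9.57 with SB590885, with even pairs of -0.37, -0.50, -0.41 and -0.44 and a mean of -0.43 (SE 0.04, adjusted p = 0.000643), although its groups overlapped. The importins IPO5 and IPO8 fell by 0.46 and 0.46, and NUP98, a pore protein that meets cargo, by 0.43. The count lower was 3 without the pairing, 15 after quantile normalisation and 12 to 23 when 1 pair was left out, the fewest without replicate 1. The mean of a gene's probe sets gave an adjusted p of 0.115 for NUP160.

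RNA polymerase III makes transfer RNA and other short RNAs. Of 37 of its genes and those that modify transfer RNA, 18 fell and 1 rose, at a median of -0.15. These are 48.6% and 2.70%, against 8.62% and 7.19% of all genes. POLR3K measured 12.05, 11.97, 11.99 and 12.06 with DMSO and 11.51, 11.36, 11.27 and 11.63 with SB590885. It fell in every pair, with differences of -0.53, -0.62, -0.73 and -0.44 and a mean of -0.58 (SE 0.05, adjusted p = 0.000525). The subunits POLR3G, POLR3D and POLR3E fell by 0.57, 0.39 and 0.38, and the 1 member that rose was MAF1, the repressor of this polymerase, at 0.22, named after its value was seen. The count lower was 6 without the pairing, 13 after quantile normalisation and 10 to 16 when 1 pair was left out, the fewest without replicate 1.

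More genes of nucleotide synthesis fell than rose. Rises and falls were 9.38% and 43.8% of that list and 6.12% and 30.6% of the cytosolic translation factors. Over all genes they were 7.19% and 8.62%. Of 32 genes 3 rose and 14 fell (0 and 5 without the pairing, 1 and 11 without replicate 1), at a median of -0.17. CTPS1, which makes CTP and on which lymphocytes depend, was at 11.17, 11.11, 10.88 and 11.00 with DMSO and 10.51, 10.54, 10.47 and 10.48 with SB590885, and fell by 0.54 (adjusted p = 0.000525), with no overlap. PFAS, of purine ring synthesis, and ADA, adenosine deaminase, fell by 0.50 and 0.44. RRM2, the small subunit of ribonucleotide reductase, rose in all pairs by 0.41, 0.37, 0.28 and 0.66, a mean of 0.43 (SE 0.06, adjusted p = 0.00259). Of 49 cytosolic translation factors 3 rose and 15 fell (0 and 3 without the pairing, 1 and 5 without replicate 1), and the count lower was 7 after quantile normalisation. EIF4E, the cap-binding protein, fell by 0.33, while EIF4EBP2, which holds it back, rose by 0.28. EIF2B3 and EIF3M, of the factors for initiator transfer RNA and the small ribosomal subunit, fell by 0.35 and 0.28. With a pair left out the test was missed by EIF2B3 without replicates 1 and 2 (adjusted p = 0.0781 and 0.0549). With probe sets averaged the adjusted p was 0.106 for EIF3M.

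**Figure D2:**
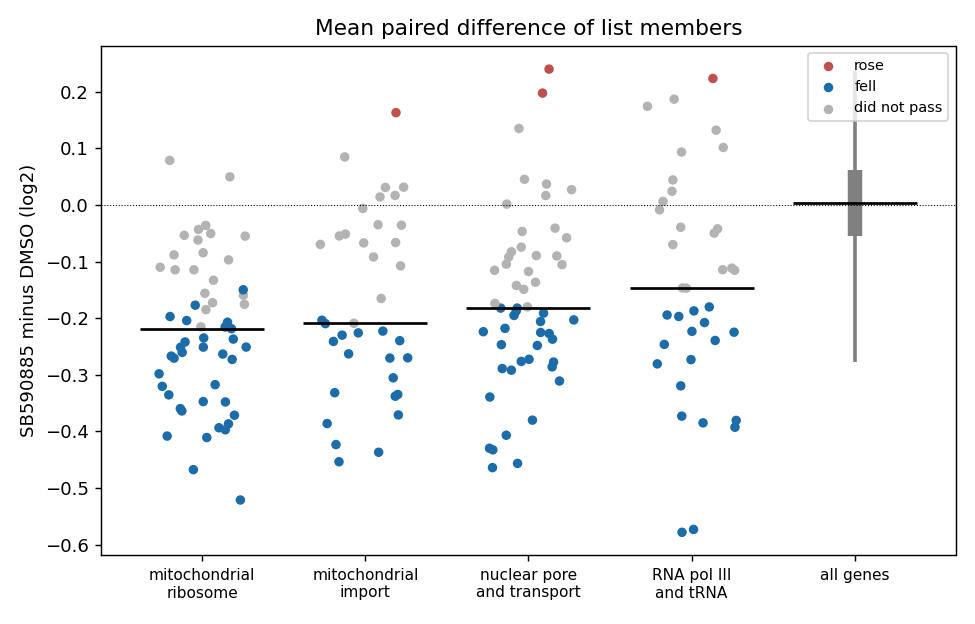
Mean of the 4 paired differences, SB590885 minus DMSO on the log2 scale, for each measured member of 4 lists (points; red rose, blue fell, grey did not pass), with the list median as a line; the last column gives all genes as median, middle 50% (thick bar) and 5th to 95th percentile (thin bar). List medians are -0.22, -0.21, -0.18 and -0.15, and few members lie above 0.

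More genes of antigen receptor signalling fell than rose. Rises were 6.06% and falls 33.3% of the list, against 7.19% and 8.62% of all genes. Of 66 genes 4 rose and 22 fell (0 and 12 without the pairing, 2 and 15 without replicate 1), the list median was -0.04, and 54 members reached the median level of all probe sets. TRAT1, an adaptor of the T cell receptor, measured 8.46, 8.33, 8.25 and 7.70 on the controls and 6.88, 7.09, 7.40 and 7.13 on the treated arrays. The groups did not overlap, and pairs of -1.57, -1.25, -0.85 and -0.57 gave a mean of -1.06 (SE 0.13, adjusted p = 0.00148). FCRL5, an Fc receptor-like protein of plasma cells, went from 9.71, 9.78, 9.67 and 9.98 with DMSO to 8.71, 8.89, 9.29 and 9.001 with SB590885, a fall of 0.81 in the mean (adjusted p = 0.00111). DOK3, an inhibitory adaptor of B cells, fell by 0.71, with pairs from -0.87 to -0.48. Every treated array was below every control for both genes. Of 12 plasma cell markers 0 rose and 5 fell (0 and 2 without the pairing, 0 and 3 without replicate 1), of 9 B cell markers 0 rose and 2 fell, and of 15 T and NK cell markers 0 rose and 4 fell (0 and 1 without the pairing, 0 and 2 without replicate 1). Shares lower were 41.7%, 22.2% and 26.7% for the plasma cell, B cell, and T and NK cell markers. The 11 monocyte and 7 erythroid markers had 0 calls, and 1 of 11 fibroblast and endothelial markers, PECAM1, fell by 0.42.

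Of 73 lymphoid transcription factor genes 2 rose and 12 fell (0 and 3 without the pairing, 0 and 7 without replicate 1). These are 2.74% and 16.4%, against 7.19% and 8.62% of all genes. IKZF1, which myeloma cells need and which lenalidomide directs to degradation, measured 10.66, 10.53, 10.31 and 10.23 with DMSO and 9.97, 9.86, 9.87 and 9.99 with SB590885. Every treated array was below every control, the pairs differed by -0.69, -0.67, -0.44 and -0.24, and the mean was -0.51 (SE 0.07, adjusted p = 0.00261). MYB fell by 0.47, BCL11A by 0.49 and XBP1 by 0.62. Among cytokine receptor genes 2 rose and 5 fell of 48 (1 and 1 without the pairing, 1 and 3 without replicate 1), which is 4.17% and 10.4% against 7.19% and 8.62% of all genes. IL6R, the receptor chain for the cytokine these cells depend on, was at 10.43, 10.18, 9.84 and 9.77 with DMSO and 9.42, 9.73, 9.50 and 8.78 with SB590885, with pairs of -1.01, -0.45, -0.34 and -0.99 and a mean of -0.70 (SE 0.11, adjusted p = 0.00391). Its groups did not overlap. IL27RA rose by 0.52, or by 0.32 with probe sets averaged, and IL13RA1 and IL17RB fell by 0.32 and 0.29. Calls ended with 1 pair left out for IL13RA1 without replicates 1 and 4 (adjusted p = 0.0621 and 0.0523).

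In the TNF superfamily 1 rose and 4 fell of 43 (0 and 1 without the pairing, 0 and 4 without replicate 1), shares of 2.33% and 9.30% against 7.19% and 8.62% of all genes. The pair of TRAIL death receptors moved in opposite directions: TNFRSF10B differed by 0.41, 0.36, 0.39 and -0.01 and rose by 0.29 (adjusted p = 0.0276), while TNFRSF10A differed by -0.49, -0.29, -0.36 and -0.17 and fell by 0.33 (adjusted p = 0.0052). TNFRSF1B, the second TNF receptor, fell by 0.60 and TRAF5, an adaptor of such receptors, by 0.31. Among genes of G protein signalling 4 rose and 7 fell of 74 (0 and 0 without the pairing, 2 and 4 without replicate 1), or 5.41% and 9.46%; the regulators RGS16 and RGS19 fell by 0.36 and 0.35, the subunit gene GNB4 by 0.48, and the receptor gene GPR18 by 0.46 with pairs of -0.72, -0.18, -0.05 and -0.91. Of 43 antigen presentation genes 3 rose and 8 fell (0 and 0 without the pairing, 0 and 4 without replicate 1), or 6.98% and 18.6%. TAP2, of the peptide pump, fell by 0.43, the peptide-trimming ERAP2 by 0.53 and the protease gene CTSS by 0.35 (-0.22 without replicate 2), and in each of the 3 pair 2 gave the largest difference. Leaving out 1 pair ended the call of TNFRSF10B without replicates 1, 2 and 3 (adjusted p = 0.131, 0.0906 and 0.0988), GPR18 without replicates 1 and 4 (adjusted p = 0.186 and 0.166) and CTSS without replicates 1 and 4 (adjusted p = 0.084 and 0.0675). Under a trended, robust prior the adjusted p was 0.253 for GPR18. Averaging the probe sets of a gene gave an adjusted p of 0.627 for TNFRSF10B, 0.0651 for GPR18 and 0.0719 for CTSS. With the R mark as the only term the adjusted p was 0.0526 for GPR18 and 0.125 for CTSS.

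The inhibitor of differentiation genes ID1, ID2 and ID3 fell. ID proteins bind E proteins and keep them off DNA, and BMP signals induce them. ID1 was at 8.41, 8.37, 8.38 and 7.90 on DMSO arrays and 7.51, 7.46, 7.59 and 7.51 on SB590885 arrays. Its groups did not overlap, and the mean was -0.75 (SE 0.08, adjusted p = 0.000872). ID3 differed by -0.57, -0.92, -0.85 and -0.55, a mean of -0.72 (SE 0.07, adjusted p = 0.000534), and ID2, named after its value was seen, fell by 0.54. TGIF1, a repressor of SMAD target genes, rose by 0.58, with pairs from 0.52 to 0.71. Over the 49 genes of TGF-beta and BMP signalling 5 rose and 7 fell (2 and 3 without the pairing, 4 and 6 without replicate 1). That is 10.2% and 14.3%, against 7.19% and 8.62% of all genes. For the nuclear receptors and cofactors below the shares were 22.7% and 4.55%. In the Notch, Wnt and Hippo list 6 rose and 6 fell of 76 (0 and 2 without the pairing, 1 and 3 without replicate 1), shares near those of all genes. WNT10B fell by 0.51 and GSK3B, a kinase of the beta-catenin destruction complex, rose by 0.42. DKK1, a Wnt inhibitor that myeloma cells secrete, differed by -0.47, -0.77, -0.11 and -0.17, and by -0.25 in the mean without replicate 2 against -0.38 with it. Nuclear receptors and cofactors had 10 rises and 2 falls among the 44 measured (1 and 0 without the pairing, 5 and 0 without replicate 1): NR2C2 rose by 0.50, ESR1, the estrogen receptor alpha, by 0.44, NR4A2 by 0.36 and NR1D2, a clock repressor, by 0.49. PER2, the core clock repressor, went the other way, from 9.80, 9.67, 9.41 and 9.45 with DMSO to 8.91, 9.07, 8.90 and 8.79 with SB590885. Its groups did not overlap, and it fell by 0.66 (adjusted p = 0.000534). When 1 pair was left out, the calls lost were DKK1 without replicates 1 and 2 (adjusted p = 0.13 and 0.0729) and NR1D2 without replicate 1 (adjusted p = 0.052). A trended, robust prior gave an adjusted p of 0.0756 for DKK1. The mean of a gene's probe sets gave an adjusted p of 0.343 for ESR1, and a rise of 0.27 for TGIF1 and 0.22 for NR2C2. The R mark in place of the pairs gave an adjusted p of 0.198 for DKK1.

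Chromatin genes moved in both directions, with more rises. Rises and falls were 21.8% and 12.8% of the Polycomb, trithorax and histone-modifying list and 13.1% and 8.20% of the remodeller and BET list. They were 20.9% and 9.30% of the cohesin, condensin and kinesin list and 15% and 15% of the long noncoding RNAs. Over all genes they were 7.19% and 8.62%. Of 78 Polycomb, trithorax and histone-modifying genes 17 rose and 10 fell (3 and 0 without the pairing, 8 and 6 without replicate 1), at a median of 0.09. CBX6, a Polycomb reader, measured 9.04, 9.28, 9.20 and 9.05 with DMSO and 10.03, 9.96, 9.78 and 9.49 with SB590885, a rise of 0.67 (SE 0.08, adjusted p = 0.00107) with no overlap. SIRT1, a deacetylase that uses NAD, rose by 0.46. PRMT5, the main symmetric arginine methyltransferase, and HDAC4 fell by 0.53 and 0.44. Of 61 remodellers and BET genes 8 rose and 5 fell (0 and 1 without the pairing, 6 and 2 without replicate 1). HEXIM1, which inhibits the elongation factor P-TEFb, was at 10.19, 10.38, 10.09 and 9.71 with DMSO and 10.91, 10.86, 10.68 and 10.46 with SB590885. All treated arrays were above all controls, pairs differed by 0.71, 0.48, 0.59 and 0.75, and the mean was 0.63 (SE 0.05, adjusted p = 0.00037). BRD2, a BET reader of acetylated histones, rose by 0.60 and MEPCE, which caps the 7SK RNA that HEXIM1 binds, by 0.34, the latter named after its value was seen. BAZ1A and RUVBL1, of remodelling complexes, fell by 0.50 and 0.45. Cohesin, condensin and kinesin genes had 9 rises and 4 falls among the 43 measured (1 and 1 without the pairing, 4 and 3 without replicate 1): KIF11, the motor that separates spindle poles, rose by 0.38, while NCAPD2 of condensin, PDS5A of cohesin and the kinesin KIF1B fell by 0.41, 0.32 and 0.38. Among 20 long noncoding RNAs 3 rose and 3 fell (0 and 1 without the pairing, 3 and 1 without replicate 1). FTX rose by 0.68, LINC-PINT by 0.67 and NORAD, which binds Pumilio proteins, by 0.40, and DLEU1 fell by 0.49. With probe sets averaged the rise of LINC-PINT was 0.19.

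Rises outnumbered falls among actin, tubulin and vesicle genes. They were 22.4% and 5.17% of the actin and tubulin genes and 18.3% and 5.63% of the Rab and vesicle genes. Over all genes the shares were 7.19% and 8.62%. Of 58 actin and tubulin genes 13 rose and 3 fell (2 and 1 without the pairing, 6 and 2 without replicate 1), at a median of 0.03. MAP1B, a microtubule-binding protein of neurons, measured 9.74, 9.76, 9.95 and 9.61 with DMSO and 10.37, 10.56, 10.58 and 10.30 with SB590885, and rose by 0.69 (SE 0.05, adjusted p = 0.000218), with no overlap. TUBB2A, a beta tubulin, rose by 0.74, 0.67, 0.67 and 0.58 in the pairs, and WASF2, which drives branched actin, by 0.39, 0.38, 0.38 and 0.40, a nearly constant step. TUBA4A fell by 0.33. Of 71 Rab and vesicle genes 13 rose and 4 fell (2 and 0 without the pairing, 8 and 1 without replicate 1): RAB11FIP1, an effector of recycling endosomes, rose by 0.52, RAB38 by 0.48, STX3 by 0.35 and RAB5B by 0.34. With probe sets averaged the rise of RAB11FIP1 was 0.30, and in limma's fit without the pairing its adjusted p was 0.374.

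Ubiquitin genes had 23 rises and 13 falls among the 100 measured (2 and 2 without the pairing, 12 and 6 without replicate 1), and deubiquitinase and SUMO genes had 14 rises and 8 falls among the 64 measured (0 and 0 without the pairing, 6 and 6 without replicate 1). The F-box gene FBXL20 rose by 0.53, KLHL9, an adaptor of cullin ligases, by 0.42, MDM4, a p53 inhibitor, by 0.41 and OTUD1 by 0.49, while USP24 fell by 0.38. In mRNA decay 8 rose and 8 fell of 58 (2 and 2 without the pairing, 4 and 4 without replicate 1). The microRNA effectors AGO4 and TNRC6B rose by 0.56 (SE 0.07, adjusted p = 0.00126) and 0.53 (SE 0.07, adjusted p = 0.00187); EXOSC2 of the exosome and ZC3H12D, a ribonuclease of lymphocytes, fell by 0.52 and 0.54. Of 54 splicing genes 5 rose and 12 fell (0 and 2 without the pairing, 0 and 6 without replicate 1). After quantile normalisation 9 of them rose and 8 fell. The kinases of SR proteins, SRPK2 and SRPK1, fell by 0.64 and 0.45, SF3B3 fell by 0.35, and HNRNPA1, whose probe set is of the _x_at kind and whose family has many pseudogenes, rose by 0.34. DNA repair and checkpoint genes had 7 rises and 12 falls among the 58 measured (0 and 2 without the pairing, 2 and 7 without replicate 1, 8 and 9 after quantile normalisation). Rises and falls were 12.1% and 20.7% of this list, 9.26% and 22.2% of splicing genes and 13.8% and 13.8% of mRNA decay genes. They were 23% and 13% of ubiquitin genes and 21.9% and 12.5% of deubiquitinase and SUMO genes. Over all genes they were 7.19% and 8.62%. CHEK2, the checkpoint kinase, was at 9.83, 9.78, 9.59 and 9.81 with DMSO and 9.12, 9.25, 9.31 and 9.18 with SB590885, a difference of -0.54 (SE 0.07, adjusted p = 0.00145) with no overlap; PMS1 and RAD50 fell by 0.40 and 0.39, and DDB2, a p53 target of nucleotide excision repair, rose by 0.47. With a pair left out the test was missed by ZC3H12D without replicate 1 (adjusted p = 0.0517) and HNRNPA1 without replicates 1, 2 and 4 (adjusted p = 0.102, 0.0581 and 0.101). With limma's trended, robust prior the call ended at an adjusted p of 0.0667 for ZC3H12D. With probe sets averaged the adjusted p was 0.0645 for FBXL20, 0.291 for HNRNPA1, 0.351 for PMS1 and 0.146 for RAD50. The rise was then 0.19 for AGO4, 0.36 for TNRC6B and 0.23 for OTUD1.

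Transport and metabolism lists held single genes with clear differences. Rises and falls were 4.26% and 8.51% of metal-handling genes and 7.32% and 11.0% of ion channels and pumps. They were 10% and 16.7% of ABC genes and 4.35% and 23.2% of other solute carriers. Over all genes they were 7.19% and 8.62%. Of 47 metal-handling genes 2 rose and 4 fell (1 and 2 without the pairing, 7 and 3 without replicate 1). The importers SLC39A10 and SLC39A14 fell by 0.87 and 0.49, and the exporter SLC30A4 rose, from 8.44, 8.55, 8.37 and 8.48 with DMSO to 9.27, 9.44, 9.14 and 8.99 with SB590885, by 0.75 (SE 0.06, adjusted p = 0.000389). With probe sets averaged the rise of SLC30A4 was 0.27. STEAP3, a ferrireductase, fell by 0.35. Among ion channels and pumps 6 rose and 9 fell of 82 (1 and 4 without the pairing, 3 and 6 without replicate 1): SLC8A1, the sodium-calcium exchanger, fell by 0.68, ATP2C1, the Golgi calcium and manganese pump, by 0.67, with pairs of -0.57, -0.82, -0.66 and -0.62, and ATP1B1, of the sodium pump, rose by 0.50. Of 30 ABC genes 3 rose and 5 fell (0 and 3 without the pairing, 1 and 4 without replicate 1); ABCE1, which recycles ribosomes and is no transporter, fell by 0.56 and ABCC10 rose by 0.37. Of 69 other solute carriers 3 rose and 16 fell (0 and 1 without the pairing, 1 and 9 without replicate 1); SLC5A6, which takes up biotin and pantothenate, fell by 0.53, SLC27A2, which takes up and activates fatty acids, by 0.49, and the mitochondrial carriers SLC25A32 and SLC25A43 by 0.44 and 0.44.

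In sphingolipid and phospholipid metabolism 10 rose and 9 fell of 68 (1 and 2 without the pairing, 6 and 6 without replicate 1). Rises and falls were 14.7% and 13.2% of this list and 13.6% and 18.2% of amino acid and polyamine genes. They were 6.67% and 17.3% of glycosylation genes and 13.7% and 11.8% of the oxidant defence list. Over all genes they were 7.19% and 8.62%. PLA2G4A, the phospholipase that frees arachidonic acid, measured 11.16, 11.09, 10.65 and 10.75 with DMSO and 10.27, 10.25, 10.09 and 9.95 with SB590885, and fell by 0.77 (adjusted p = 0.000263), again with no overlap. SGPP1 and CERT1, of sphingosine phosphate and ceramide handling, rose by 0.42 and 0.39, and ETNK1, ethanolamine kinase, fell by 0.61, with 3 probe sets lower and 1 higher. Amino acid and polyamine genes had 6 rises and 8 falls among the 44 measured (1 and 1 without the pairing, 2 and 5 without replicate 1): besides KMO, AGMAT and the spermine synthase gene SMS fell by 0.46 and 0.41, and BCKDHA, of branched-chain amino acid breakdown, rose by 0.45. Glycosylation genes had 5 rises and 13 falls among the 75 measured (0 and 1 without the pairing, 5 and 3 without replicate 1). FUT8, which adds core fucose, and STT3A, a catalytic subunit of oligosaccharyltransferase, fell by 0.40 and 0.38, C1GALT1C1 fell by 0.31, and OGA, which removes O-GlcNAc, rose by 0.42. In the oxidant defence list 7 rose and 6 fell of 51 (1 and 1 without the pairing, 4 and 1 without replicate 1): SLC7A11, the cystine importer and also an ATF4 target, rose in the pairs by 1.11, 0.77, 1.10 and 1.06, a mean of 1.01 (SE 0.06, adjusted p = 0.000198), and SRXN1 by 0.44, while NFE2L3 fell by 0.50. Of 10 small nucleolar RNA host genes 1 rose, EPB41L4A-AS1 at 0.26, and 1 fell, SNHG17 at -0.19. In the clock list, CSNK1D rose by 0.27 and USP2 fell by 0.26. Calls ended with 1 pair left out for C1GALT1C1 without replicates 1, 2 and 4 (adjusted p = 0.108, 0.0819 and 0.0716), SNHG17 without replicates 1, 3 and 4 (adjusted p = 0.123, 0.0504 and 0.0626) and CSNK1D without replicates 1, 2 and 3 (adjusted p = 0.0555, 0.0694 and 0.0627). Averaging the probe sets of a gene gave an adjusted p of 0.0874 for C1GALT1C1, 0.733 for EPB41L4A-AS1, 0.137 for CSNK1D and 0.0528 for USP2. Quantile normalisation gave an adjusted p of 0.0621 for C1GALT1C1 and 0.205 for SNHG17.

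**Figure D3:**
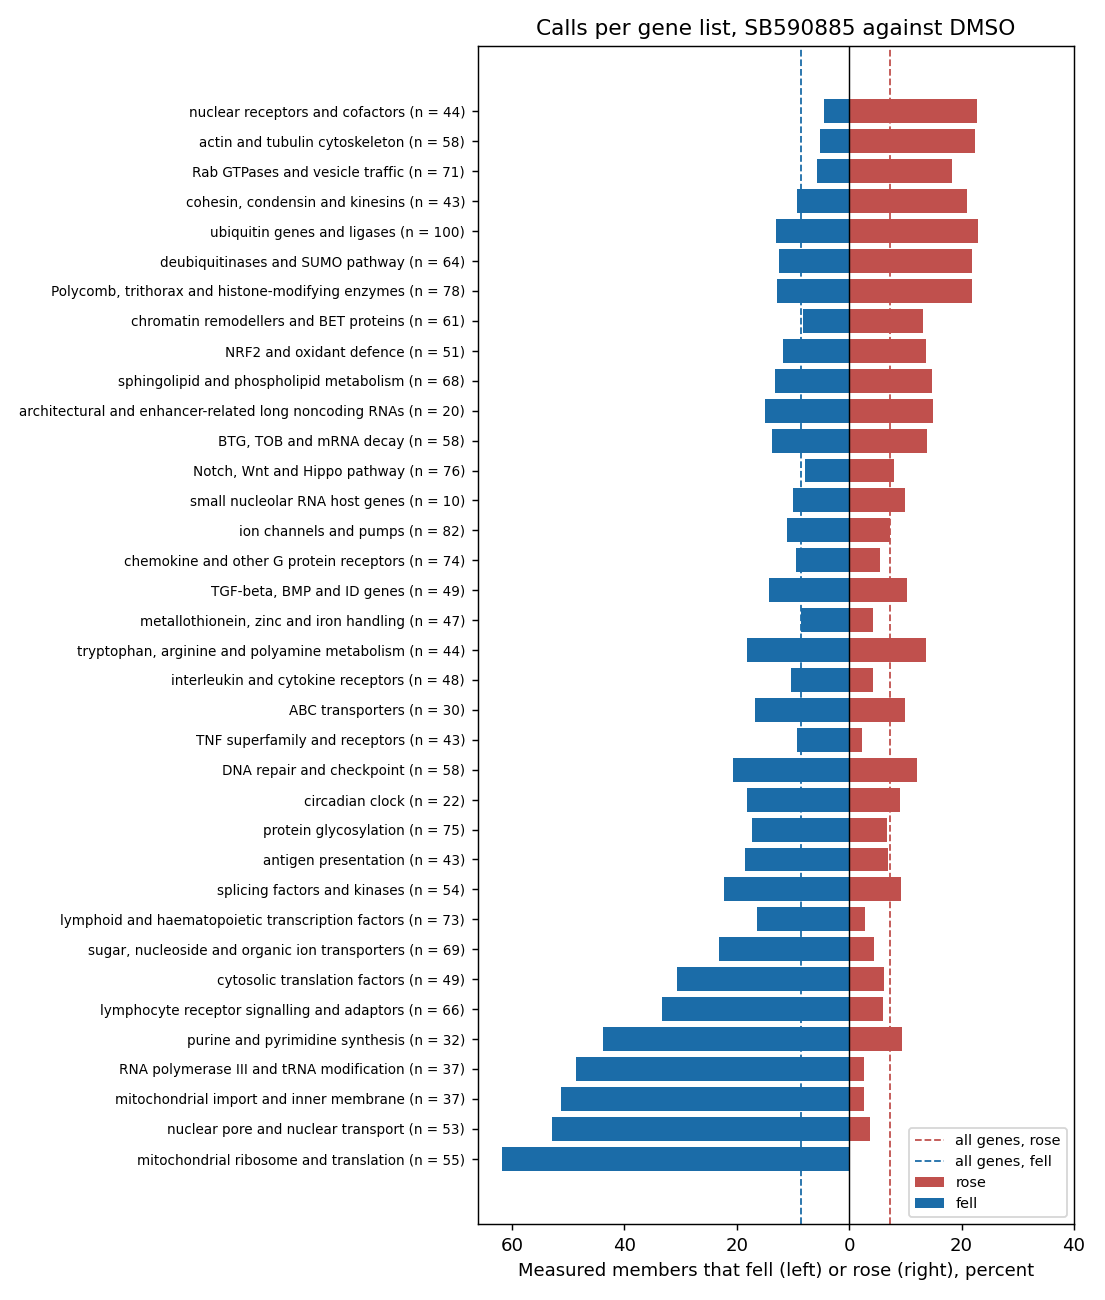
Share of the measured members of each of 36 gene lists that rose (right, red) or fell (left, blue) with SB590885, in percent; n is the number measured and dashed lines give all genes, 7.19% higher and 8.62% lower. The mitochondrial ribosome, nuclear pore, mitochondrial import and polymerase III lists extend furthest left.

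Where SB590885 and PD325901 differed was tested on their 8 arrays, with no control array in the fit. Of all genes 1872 (9.47%) were higher with SB590885 and 736 (3.72%) lower, and the higher share of these calls, 71.8%, was 56.4% after quantile normalisation. Without the pairing the counts were 137 and 69. The genes below were chosen for their difference from DMSO on the same SB590885 arrays, so their values are given as a description. ERN1 was at 8.85, 9.04, 8.48 and 8.81 with PD325901, so that SB590885 was higher by 1.50 (adjusted p = 6.29e-05). TP53INP1, by contrast, differed by 0.05 (SE 0.11, adjusted p = 0.887). RAB11FIP1 gave the clearest gap among the vesicle genes: 8.38, 8.40, 8.08 and 8.02 with DMSO, 9.06, 9.27, 8.39 and 8.24 with SB590885 and 7.24, 7.22, 6.97 and 6.91 with PD325901. The SB590885 arrays were higher than the PD325901 arrays by 1.66 (adjusted p = 5.13e-05), and every PD325901 array was below every other array, while the DMSO and SB590885 arrays overlapped. MLKL was at 9.75, 9.92, 9.55 and 9.33 with PD325901, and SB590885 was lower by 1.20 (adjusted p = 0.000167). TRAT1 was lower than with PD325901 by 1.02 and XBP1 by 0.78. For DUSP6 the order was the other way, with 7.07, 7.21, 6.63 and 6.98 on PD325901 arrays and SB590885 higher by 1.67 (adjusted p = 5e-05). PER2 was 0.68 higher with SB590885 than with PD325901 and RGS19 0.56 higher. HDAC4 was higher by 0.24. Since doses are not given, these are differences between the treatments as applied.

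**Figure D4:**
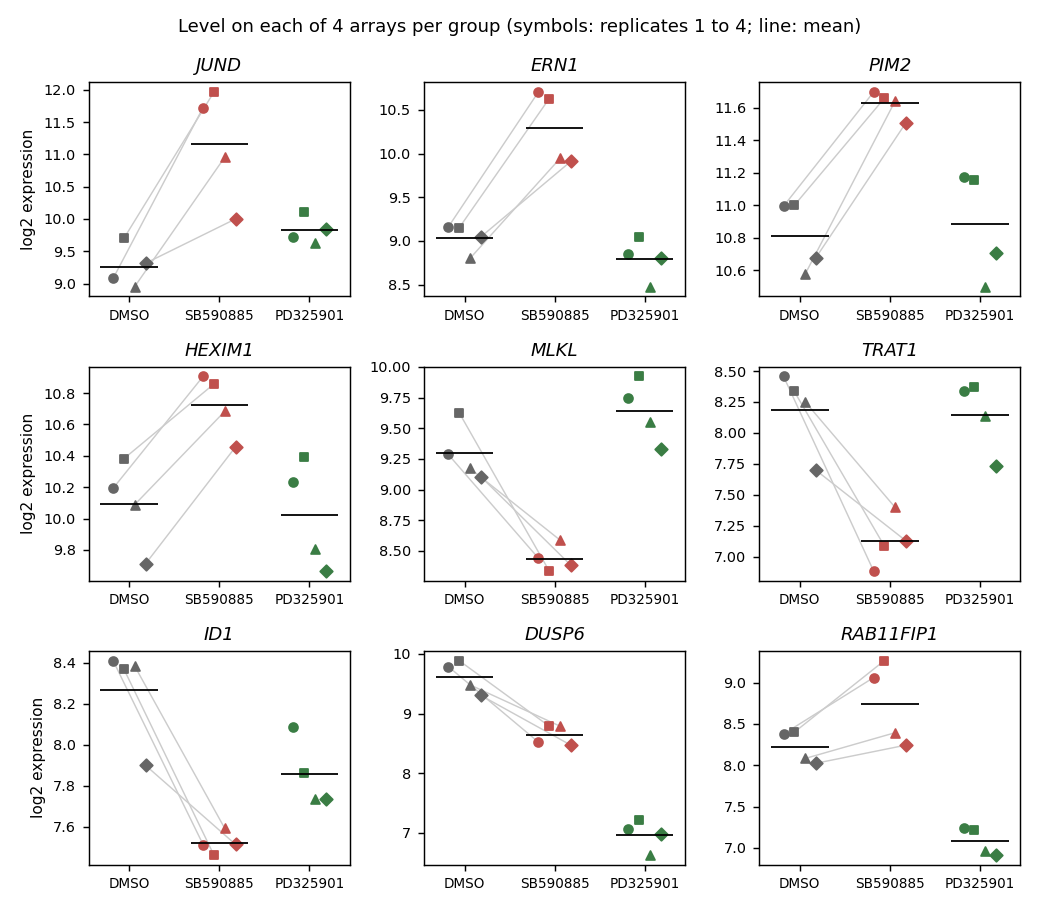
Log2 expression (vertical axis, own range per gene) of 9 named genes on each array of the DMSO, SB590885 and PD325901 groups; symbols are replicates 1 to 4, black lines group means, and grey lines join DMSO and SB590885 arrays of 1 number. JUND, ERN1, PIM2 and HEXIM1 are high in the SB590885 group, MLKL, TRAT1 and ID1 are low in it, and DUSP6 and RAB11FIP1 are lowest with PD325901.

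Responses were larger on arrays without the R mark, where values also spread more; the part of that spread was not tested. Of the 3125 genes, 2333 moved more in pairs 1 and 2 than in pairs 3 and 4, and the median rise was 0.32 against 0.23 and the median fall -0.32 against -0.25. The difference between the sets, tested by limma on the paired differences, passed for 9 genes (0.0455% of all), all with a lower value under the mark: 4 histone genes (H2BC11, H2BC12L, H2BC21 and H3C2), the sterol pathway genes MSMO1 and IDI1, CDKN1A, CCL5 and MRFAP1L2. CDKN1A, which encodes the cell cycle inhibitor p21, differed by 0.67 without the mark and 0.04 with it, and over all pairs it did not pass (adjusted p = 0.0799). MSMO1 differed by 0.72 without the mark and -0.36 with it and IDI1 by 1.14 without the mark and 0.38 with it. CCL5, a chemokine, differed by 0.69 without the mark and 0.01 with it, and its adjusted p over all pairs was 0.103. With 2 pairs in each set this count was not stable, as it was 0 after quantile normalisation and 22 lower with 4 higher under a trended, robust prior.

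**Figure D5:**
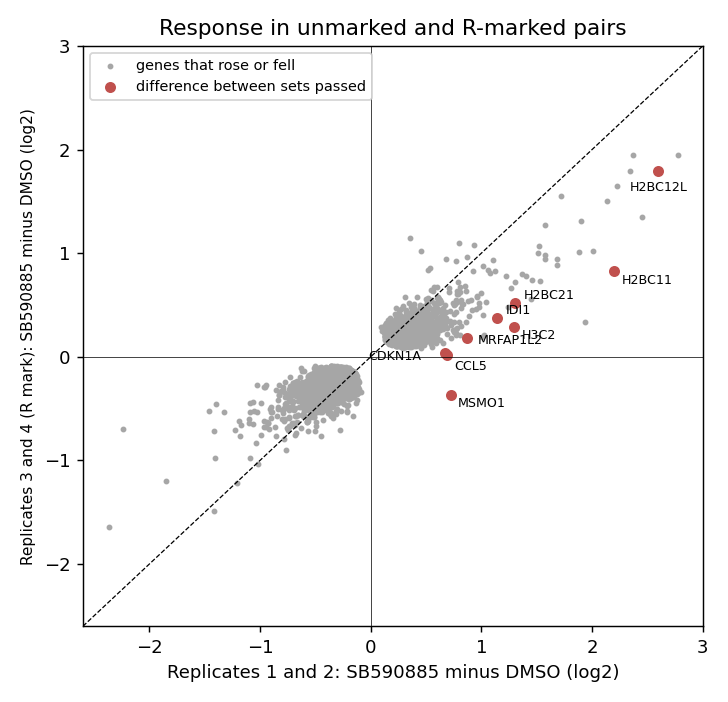
Mean SB590885 minus DMSO difference (log2) in pairs 1 and 2 (horizontal) and in pairs 3 and 4, which carry the R mark (vertical); grey points are the genes that rose or fell, red points the 9 whose difference between sets passed, and the dashed line marks equal responses. Most grey points lie nearer 0 on the vertical than on the horizontal axis, and MSMO1 lies at 0.72 and -0.36.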

How the data were processed

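INA-6 cells were profiled on Affymetrix HG-U133 Plus 2.0 arrays. The deposited log2 expression values were made by the authors with RMA in R 3.0.1, per the submitters' processing notes. Whether the 12 arrays were normalised together is not stated in the sources used here. RMA values have no zero, and the lowest value of each of the 8 arrays lay between 5.85 and 6.01.

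From these values, 62 control probe sets were left out and 54613 were tested. The platform annotation gave 41091 probe sets 1 gene symbol, 1801 several and 11721 none. To stand for each of 19775 genes, the probe set of highest mean in the 8 arrays was taken; 10523 genes had several.
Testing SB590885 against DMSO used limma 3.58.1 under R 4.3.3 (lmFit and eBayes without trend, replicate number as a block, Benjamini-Hochberg adjustment over 54613 probe sets, threshold 0.05), after the script was tested on simulated data. SB590885 and PD325901 arrays were fitted the same way, and the R mark was tested on the 4 paired differences. Values after ± are SD over 4 arrays. The design text calls the arrays biological replicates, and nothing further describes the cultures. The p-values of the paired fits therefore reflect only the spread of the differences between same-numbered arrays, with variance moderated over all probe sets.

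The labels give replicate numbers and the R mark on arrays 3 and 4 of each group, and nothing else that ties arrays together. Deviations from the group means correlated at 0.522 to 0.614 between same-numbered SB590885 and DMSO arrays. All 4 pairs were above 0.1, the level at which the numbers were taken as pairs. Arrays of different number but the same mark also correlated, at 0.42 to 0.57. That level therefore could not tell the number from the mark. SB590885 replicate 3 correlated at 0.566 with DMSO replicate 4 and at 0.522 with DMSO replicate 3. Much of the correlation was the R mark: within the sets, replicate 2 minus 1 in SB590885 correlated at 0.184 with the same in DMSO, and replicate 4 minus 3 at 0.038. No arrays within a group held identical values.

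The members and gene lists were chosen with earlier results of these data known. The 176 named genes comprise 20 rises and 20 falls, the largest of those that passed, moved 1 way in 4 of 4 pairs and had a higher group mean of at least 6.92 (the median of all values), outside histones and 4 lists set aside, plus up to 4 members that passed from each of 37 lists, largest difference first. Of these lists 1 is not reported here. A further 6 lists were cell type markers. In all, 2047 of 2239 symbols of the theme and marker lists were measured. The interferon list and the 6 motifs were chosen after results were seen. Alternatives were the block, the arrays fitted, the R mark, filtering, scaling, the prior, probe set choice and leaving out each pair. Promoter sequences are from RefSeq.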

Additional observations from a re-analysis of the deposited data

Results flagged for a closer look

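In 16 of 352 groups of 4 arrays, from the 176 named genes in the DMSO and SB590885 groups, 1 array lay far from the other three by Dixon's test at the 95% level, and chance alone gives about 1 in 20 groups. Arrays of DMSO replicate 2 gave 3 of them, the interferon-related genes IFIT2 at 9.60, PLSCR1 at 13.002 and SAMD9L at 12.18, and the median of the interferon list was high on this array, as it was on PD325901 replicate 2.

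The other 13 were the genes ATP1B1 at 7.59 on DMSO replicate 1, EIF2B3 at 10.19 on DMSO replicate 3, ERAP2 at 9.70 on SB590885 replicate 3, ESR1 at 7.59 on DMSO replicate 3, ID1 at 7.90 on DMSO replicate 4, IPO5 at 11.21 on DMSO replicate 3, IPO5 at 11.01 on SB590885 replicate 4, MYB at 9.26 on SB590885 replicate 1, SLA at 10.11 on DMSO replicate 4, TEX19 at 10.33 on SB590885 replicate 2, TNRC6B at 8.55 on DMSO replicate 1, TUFT1 at 7.38 on DMSO replicate 4 and USP2 at 8.24 on DMSO replicate 1.

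The response to SB590885 differed between the R-marked and unmarked pairs for 9 genes by limma on the paired differences (adjusted p from 0.0123 to 0.0486). The R-marked minus unmarked difference was -0.68 for CCL5, -0.63 for CDKN1A, -1.37 for H2BC11, -0.81 for H2BC12L, -0.78 for H2BC21, -1.01 for H3C2, -0.76 for IDI1, -0.69 for MRFAP1L2 and -1.09 for MSMO1. Histone genes make up 4 of these 9, and the SB590885 minus DMSO difference was smaller or lower under the mark in each.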

How the results depend on the processing

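The difference between R-marked and unmarked arrays mattered most. With the R mark as a term and no replicate block, SB590885 against DMSO gave 1486 higher and 1715 lower genes, SB590885 against PD325901 gave 2008 and 786, and 169 of the 176 named genes passed. With no replicate block and no such term, SB590885 against DMSO gave 213 higher and 336 lower genes, and all 12 arrays with no replicate block gave 270 and 289. SB590885 against PD325901 gave 137 higher and 69 lower with no block and 346 and 156 over all 12 arrays with no block. The difference by R mark gave 1 lower gene with no block. Of the named genes, 77 passed with no block or term, and none changed direction in SB590885 minus DMSO under any alternative run.

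Leaving out 1 pair gave 738 to 1290 higher and 943 to 1414 lower genes against DMSO, with the lowest counts without replicate 1, and 1270 to 1403 higher and 390 to 660 lower against PD325901. The difference by R mark then ranged from 0 to 204 genes higher and 8 to 140 lower. In the 4 fits without 1 pair, 157 named genes passed every time, and 19 did not pass without replicate 1, 7 without replicate 2, 4 without replicate 3 and 9 without replicate 4.

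R-marked arrays alone gave 848 higher genes against DMSO. Against PD325901, unmarked arrays alone gave 1623 lower genes and quantile normalisation 1217. Of the difference by R mark, 4 genes were lower after centring, 0 after quantile normalisation, with probe sets under the median left out or with the mean of a gene's probe sets, 1 with representative probe sets alone, and 4 higher with 22 lower under a trended, robust prior. On the R-marked arrays alone, NFE2L3 and TNFRSF1B were 0.24 higher with SB590885 than with PD325901, the reverse of all pairs. Fits on the marked or the unmarked arrays alone rest on 2 pairs. Their p-values and counts lean on the variance shared by all probe sets and hardly measure a gene's own spread. In the other alternatives the counts over all genes stayed within 1.5 times. Counts within lists moved more: of 74 such counts, 56 moved by over 1.5 times without replicate 1, 27 without replicate 2, 13 without replicate 3, 21 without replicate 4, 73 with no block on 8 arrays and 72 on all 12, 34 on the R-marked arrays alone, 17 with the mean of a gene's probe sets and 1 to 9 in each of the rest. The differences of 75 named genes moved by over 1.5 times with the mean of a gene's probe sets and of 33 on the R-marked arrays alone. These 2 alternatives lost the calls of 21 and 11 named genes, and 19 were lost under the trended, robust prior.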

Other observations

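Several genes gave different answers from different probe sets. Of 2088 genes that rose or fell and had more than 1 probe set, 38 had a probe set called in the opposite direction. ETNK1, ethanolamine kinase, had 3 probe sets lower, by -0.61, -0.35 and -0.27 on the log2 scale, and 1 higher, by 0.31 (adjusted p from 0.00132 to 0.0231). ABCF2, an ABC protein without a membrane domain, had 2 lower, by -0.41 and -0.20, and 1 higher, by 0.45 (adjusted p from 0.00717 to 0.0135). Such probe sets can read different transcript ends or introns, and which they read was not determined here. A further 626 probe sets without a gene symbol passed the test.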
